A study of Mus musculus with 10 samples.

Results

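The DNA on either side of the mouse Ikzf1 locus was examined on 10 comparative genomic hybridisation arrays, and it was represented by 1239 of the 402404 probes, 382487 of which lie on autosomes. Members were all non-control probes whose mm9 position lay inside the proximal flank, chr11:7000000-11559999, or the distal flank, chr11:11700001-17000000, with the Ikzf1 interval between them left out. The rule used positions only and no measured value, but it was set with earlier results of these data known. The proximal flank spans 4.56 Mb with 549 probes, and the distal flank spans 5.30 Mb with 690 probes. The tumours were primary leukemias with BCR-ABL1, the tyrosine kinase of a chromosomal fusion, and were taken as GFP+ leukemic bone marrow cells from 5 Ikzf1+/+ and 5 Ikzf1+/- mouse samples. Each tumour DNA carried the dye Cy5 and was hybridised against Cy3-labelled DNA of stage-matched non-leukemic bone marrow, which the design text describes as normal B220+ B cell DNA. The labels word this reference alike on all 10 arrays and do not say whether it was one preparation. They also give no strain, age, construction of the Ikzf1 allele or vector, and do not say that tumours of a genotype came from separate animals, so the tests rest on the spread among these samples alone, which may be technical. Dyes were not swapped.

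Ikzf1 encodes Ikaros, a zinc finger transcription factor needed for lymphocyte development, and loss of its human counterpart is frequent in BCR-ABL1 positive acute lymphoblastic leukemia. When a gene is altered in embryonic stem cells of one mouse strain and the allele is then bred into another, DNA beside it travels with the allele, so chromosome around a targeted gene can keep bases of the first strain. A base mismatch weakens the binding of DNA to a probe of about 60 bases and changes single probes, whereas a deletion or gain shifts every probe along a stretch. The ratio was log2 of Cy5 over Cy3, centred on each array's autosomal median, so that 0 means the same tumour DNA relative to the reference as at the median autosomal probe. A loss of 1 copy of 2 in every cell would lie at -1 and a gain of 1 copy at 0.58. In bulk DNA, a loss in some of the cells and a shallower change in all of them cannot be told apart.

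In a GRCm38 gene table that was used for names and order only, the 6 genes next to Ikzf1 on the lower-numbered side were 4930512M02Rik, Spata48, Zpbp, Vwc2, Abca13 and Upp1. Zpbp is a sperm protein that binds the egg coat, Vwc2 a secreted antagonist of bone morphogenetic proteins, Abca13 a lipid transporter and Upp1 a uridine phosphorylase. On the higher-numbered side the order was Fignl1, Ddc, Grb10, Cobl, Pom121l12 and Vstm2a. Fignl1 takes part in homologous recombination, Ddc makes dopamine and serotonin from their precursors, Grb10 is an imprinted adaptor that restrains insulin receptor signalling, and Cobl nucleates actin filaments. The arrays' build is mm9 and their files name no gene for a probe, so no probe below is assigned to any of these genes.

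The median distance between neighbouring flank probes was 6.77 kb on the proximal side and 6.22 kb on the distal side, against 5.34 kb over the autosomes. Density was uneven: the first 100 kb of the distal flank held 207 probes, while the median 100 kb window held 9. In the flanks, 1209 probes passed the scanner software's test for signal above background and were unsaturated on every array, with either dye. The median background-subtracted signal over flank probes was lower for Cy5 in Ikzf1+/+ arrays, at 143 ± 31.7 against 231 ± 11.5 in Ikzf1+/- arrays, and higher for Cy3, at 242 ± 5.93 against 206 ± 12.6 (mean ± SD over 5 arrays; exact permutation p = 0.00794 for each dye, two-sided). Noise between neighbouring flank probes was 0.215 ± 0.0155 in Ikzf1+/+ and 0.188 ± 0.0123 in Ikzf1+/- arrays (exact permutation p = 0.0238). The genotypes were spread over 5 slides, and slide 3 was the only one that held both, namely Ikzf1+/+ tumour 5 and Ikzf1+/- tumour 1. Brightness and most slides therefore move with genotype, and their part in the differences below was not tested.

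No deletion or gain of the flanks was called in any tumour. Segmentation, with a call defined as at least 5 probes and an absolute mean ratio of at least 0.3, gave 0 calls in the flanks in 10 tumours, where 0.822% of all autosomal probe values lay in called segments. The count was also 0 at a threshold of 0.2, where 1.77% of autosomal probe values lay in called segments. At 0.5, where 0.185% did, a count of 0 follows from that at 0.3. The lowest mean over a 500 kb block of the flanks in any tumour was -0.270, in Ikzf1+/+ tumour 1, and the highest was 0.093, in Ikzf1+/- tumour 4. Both are far from the levels of a copy lost or gained in every cell. When single probes were not limited to 4 noise SDs before segmentation, 2 losses of 5 probes appeared in the flanks. They held 10 of 12389 flank probe values, where 0.803% of all autosomal probe values lay in 373 calls in this setting. One was in Ikzf1+/+ tumour 2 at chr11:11544843-11546353, with a mean of -0.655, and the other in Ikzf1+/- tumour 2 at chr11:9926907-9970185, with a mean of -0.652.

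**Figure D1:**
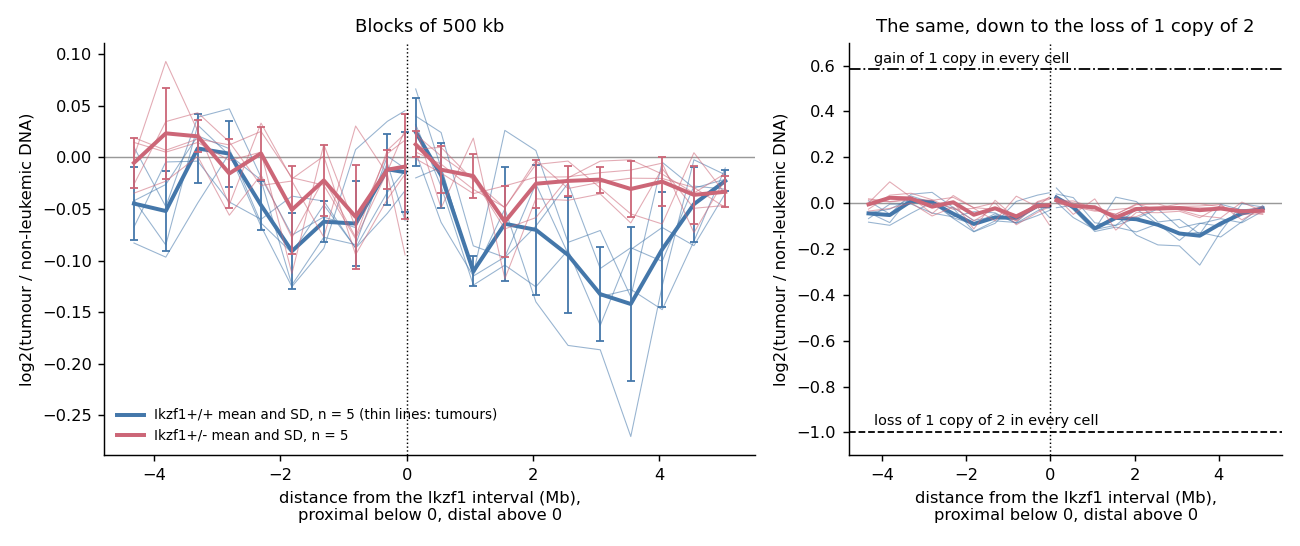
Mean log2 ratio of tumour over non-leukemic DNA in 500 kb blocks of the flanks against distance from the Ikzf1 interval in Mb; thin lines are tumours, thick lines genotype means, and bars 1 SD (n = 5 each). The right panel repeats the lines on a scale that reaches a loss of 1 copy of 2 at -1 and a gain of 1 copy at 0.58; the lowest block of any tumour is at -0.270.

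The ratios differed instead in shallow, broad departures that stayed below the call threshold. They were read on dye-normalized signals, and the tumour and non-leukemic channels are given apart below. In each Ikzf1+/- tumour the segmentation left the flanks within 1 long segment, and the 5 segment means ran from -0.015 to -0.0022. These segments held 3945 to 6611 probes, of which 1239 were flank probes, so their means mostly describe DNA outside the flanks. Segment means of the genotypes therefore do not cover like stretches. Ikzf1+/+ tumours were divided into 2 to 4 segments across the flanks. The lowest of these had means of -0.157, -0.092, -0.082, -0.034 and -0.082 in tumours 1 to 5. That of tumour 1 covered chr11:12328424-15690097 with 266 probes, and that of tumour 2 covered chr11:12622526-16075956 with 275 probes. In tumours 1, 2, 3 and 5 the low segment began in the distal flank, whereas in tumour 4 it took in 1234 of the 1239 flank probes.

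Averaged over all 1239 probes, the flanks were slightly lower in Ikzf1+/+ than in Ikzf1+/- tumours. The mean ratios of Ikzf1+/+ tumours 1 to 5 were -0.035, -0.021, -0.045, -0.037 and -0.039, and those of Ikzf1+/- tumours 1 to 5 were -0.017, -0.012, -0.0039, -0.012 and -0.019. Every Ikzf1+/- tumour lay above every Ikzf1+/+ tumour. The means were -0.036 ± 0.0088 and -0.013 ± 0.0057 (SD, n = 5 each), a difference of 0.023 with a standard error of 0.0047 (two-sided exact permutation p = 0.00794, adjusted 0.0119 over 3 comparisons). With 252 splits of 5 against 5 arrays, 0.00794 is the smallest p that can be reached. On slide 3 the same difference was 0.022, from 1 tumour of each genotype. It was 0.042 when arrays were centred on chromosome 11 outside the flanks, 0.039 with each 100 kb window counted once, 0.035 without the densely tiled 200 kb on either side and 0.015 with loess.

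Settings without the dye normalization, which the scanner software had applied before deposition, did not agree on this difference. With the background-subtracted signals taken before that step, the flank means were -0.044 ± 0.0137 in Ikzf1+/+ and -0.046 ± 0.0073 in Ikzf1+/- tumours, a difference of -0.0012 (n = 5 each, exact permutation p = 0.849). That setting was added after the data had been seen. The differences in ratio over broad stretches are given below for the processed signals, and those before dye normalization follow them.

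Each flank showed the difference on the processed signals. On the proximal side, Ikzf1+/+ tumours 1 to 5 stood at -0.030, -0.020, -0.034, -0.044 and -0.031, against -0.021, -0.0056, 0.00098, -0.0080 and -0.018 in Ikzf1+/- tumours 1 to 5. Of the Ikzf1+/- tumours, 4 lay above all Ikzf1+/+ tumours, and tumour 1 overlapped them (difference 0.021, SE 0.0056, n = 5 each, exact permutation p = 0.0159, adjusted 0.0159). Distal means ran from -0.053 to -0.022 in Ikzf1+/+ and from -0.019 to -0.0078 in Ikzf1+/- tumours, without overlap (difference 0.024, SE 0.0057, n = 5 each, exact permutation p = 0.00794, adjusted 0.0119). On signals before dye normalization the differences were -0.0042 on the proximal side and 0.0012 on the distal side, and neither passed the exact permutation test.

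Set against the other 22176 probes of chromosome 11 outside the Ikzf1 interval, the flanks lay lower in all 10 tumours. For Ikzf1+/+ tumours 1 to 5, flank minus the rest of the chromosome came to -0.080, -0.040, -0.046, -0.048 and -0.055, compared with -0.026, -0.0089, -0.0091, -0.017 and -0.0029 in Ikzf1+/- tumours 1 to 5. The genotypes did not overlap (difference 0.041, SE 0.0081, n = 5 each, exact permutation p = 0.00794). The rest of the chromosome contributed to this, at 0.018 ± 0.0165 in Ikzf1+/+ and -0.000089 ± 0.0099 in Ikzf1+/- tumours. Before dye normalization the difference was 0.015 (exact permutation p = 0.0794), and with normexp background correction it was -0.014 (exact permutation p = 0.373).

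On processed signals the difference was not found next to the locus. Over the 505 probes within 1 Mb of the Ikzf1 interval, Ikzf1+/+ tumours 1 to 5 had means of 0.042, 0.0056, -0.015, -0.034 and 0.0040, and Ikzf1+/- tumours 1 to 5 had 0.0036, -0.0043, 0.0050, -0.012 and -0.0064. The Ikzf1+/- values lay within the range of the Ikzf1+/+ values (difference -0.0032, SE 0.0130, exact permutation p = 0.817, adjusted 0.817 over 3 bands). Before dye normalization it was -0.013 (exact permutation p = 0.333). Without Ikzf1+/+ tumour 1, the highest, the difference was 0.0071. With normexp background correction it was 0.037 (exact permutation p = 0.0317, adjusted 0.0952), larger than in either outer band in that setting. Its sign also turned to above 0 under other settings, given with the limits at the end.

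From 1 to 3 Mb, over 355 probes, the genotypes separated, at -0.069 ± 0.0216 for Ikzf1+/+ against -0.024 ± 0.0077 for Ikzf1+/- tumours (SD over 5 tumours each, difference 0.045, SE 0.0103, exact permutation p = 0.00794, adjusted 0.0238). Beyond 3 Mb, over 379 probes, the means were -0.052 ± 0.0209 and -0.016 ± 0.0111 (difference 0.037, SE 0.0106, exact permutation p = 0.0159, adjusted 0.0238), and 4 of 5 Ikzf1+/- tumours lay above all Ikzf1+/+ tumours. Before dye normalization these differences were 0.0077 and 0.0058 (exact permutation p = 0.603 and 0.563), and with normexp background correction they were 0.0059 and 0.0082, neither past the exact permutation test. The contrast of probes beyond 1 Mb with those within 1 Mb, chosen after the values were seen, was -0.061 ± 0.0457 in Ikzf1+/+ and -0.017 ± 0.0122 in Ikzf1+/- tumours, with overlap (difference 0.044, exact permutation p = 0.0476).

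**Figure D2:**
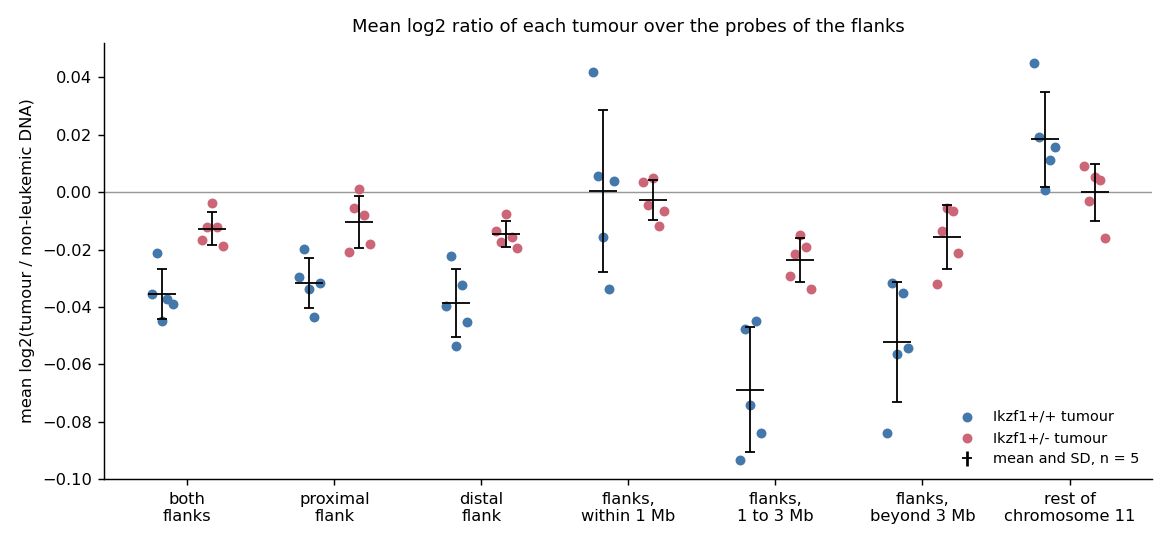
Mean log2 ratio of tumour over non-leukemic DNA in each of 10 tumours (points) for both flanks, each flank, 3 distance bands and the other probes of chromosome 11; black marks are means and bars 1 SD (n = 5 each). The genotypes separate over both flanks, the distal flank and the band from 1 to 3 Mb, and overlap within 1 Mb.

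Along the flanks, the lowest stretch in Ikzf1+/+ tumours was in the distal flank from 14 to 16 Mb of chromosome 11, 2.3 to 4.3 Mb from the Ikzf1 interval. Ikzf1+/+ tumours 1 to 5 had means of -0.187, -0.080, -0.126, -0.070 and -0.102 there, and Ikzf1+/- tumours 1 to 5 had -0.024, -0.013, -0.011, -0.038 and -0.037. Every Ikzf1+/+ tumour was lower than every Ikzf1+/- tumour, and tumour 1 was the lowest (means -0.113 ± 0.0468 and -0.024 ± 0.0128). The stretch was chosen for its difference, so no test is given. Of the flank blocks of 1 Mb, those starting at 14 and 15 Mb were the only ones in which the genotypes did not overlap, with differences of 0.091 and 0.086. How often autosomal blocks of 1 Mb do so was not computed. In blocks of 500 kb, chr11:12509946-12999102, outside this stretch, also separated without overlap, with a difference of 0.092. By another measure, limma at 500 kb called 6.22% of autosomal windows higher and 1.13% lower in Ikzf1+/- tumours. Those shares do not give how often blocks separate without overlap. Before dye normalization the genotypes overlapped over the stretch, with means of -0.136 ± 0.0349 and -0.117 ± 0.0217.

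The 2 dyes were then read apart, each centred on its own autosomal median. Over 14 to 16 Mb the tumour channel, Cy5, was at -0.417 ± 0.0439 in Ikzf1+/+ and -0.405 ± 0.0237 in Ikzf1+/- arrays, and the genotypes overlapped. The channel of non-leukemic DNA, Cy3, was at -0.291 ± 0.0193 and -0.377 ± 0.0120, and the genotypes did not overlap. On processed signals the genotypes thus separated in Cy3 and not in Cy5. Dye normalization adjusts the channels jointly, and the source of the difference in ratio was not tested. Cy3 also separated over the same stretch before dye normalization, at -0.181 ± 0.0084 against -0.237 ± 0.0120, where Cy5 was at -0.312 ± 0.0381 against -0.355 ± 0.0286 with overlap.

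Over both flanks together Cy3 behaved alike, at -0.084 ± 0.0053 in Ikzf1+/+ and -0.127 ± 0.0086 in Ikzf1+/- arrays, without overlap. Cy5 was at -0.132 ± 0.0130 and -0.144 ± 0.0109, with overlap. Before dye normalization both channels separated in the same direction, Cy5 by -0.033 and Cy3 by -0.026. Of the 21 windows of 500 kb in the flanks, Cy3 was lower in all Ikzf1+/- arrays than in all Ikzf1+/+ arrays in 8 and higher in 0, while 5.68% and 0.335% of the autosomal windows did so. Of these 8 windows, 4 lay in each flank. For Cy5, 1 window was higher and 1 lower without overlap, against 5.53% and 2.51% of the autosomal windows. These counts were chosen after the values were seen, and the spread between reference preparations was not tested.

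**Figure D3:**
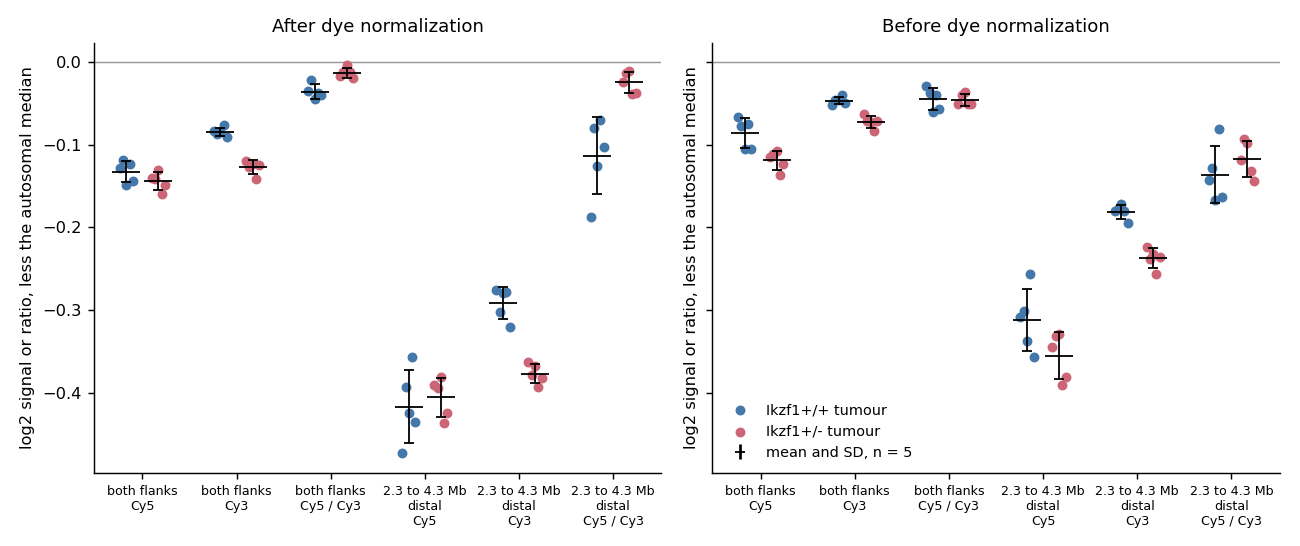
Log2 signal of each dye and log2 ratio, less the autosomal median, in 10 arrays (points, named by the genotype of the tumour) over both flanks and over the distal stretch 2.3 to 4.3 Mb from the Ikzf1 interval, after and before the scanner software's dye normalization; black marks are means and bars 1 SD (n = 5 each). Cy3, the non-leukemic DNA, separates over both stretches in both panels, while the ratio separates only after dye normalization.

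Windows of 100 kb were next tested over all autosomes with limma. Of 99 flank windows, 1 was higher in Ikzf1+/- tumours at an adjusted p under 0.05 and 0 were lower, where 0.0171% and 0.00427% of 23427 autosomal windows were called. At an unadjusted p under 0.05, 15 were higher and 3 lower, against 10.7% and 5.86% over the autosomes. The genotypes did not overlap in 5 windows that were higher and 1 that was lower, against 2.62% and 1.82%. In 76 of the 99 windows the Ikzf1+/- mean was above the Ikzf1+/+ mean, against 56.2% of autosomal windows and 43.2% on the rest of chromosome 11. The median difference was 0.036, against 0.0092 over all autosomal windows. In windows of 500 kb, 2 of 21 were called higher and 0 lower, where 6.22% and 1.13% of autosomal windows were. These 2 were chr11:12509946-12999102, with a difference of 0.092 (limma adjusted p = 0.0121), and chr11:14533734-14996359, with a difference of 0.111 (limma adjusted p = 0.0175). On signals before dye normalization they differed by 0.024 and 0.016 (limma adjusted p = 0.50 and 0.774).

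The called 100 kb window, chr11:7501733-7579896, lay in the proximal flank 3.98 Mb from the Ikzf1 interval and held 8 probes. Ikzf1+/+ tumours 1 to 5 had ratios of -0.074, -0.079, -0.102, -0.100 and -0.078, against 0.067, 0.090, 0.054, 0.083 and 0.082 in Ikzf1+/- tumours 1 to 5. All Ikzf1+/+ tumours were below 0 and all Ikzf1+/- tumours above it. The difference was 0.162 with a limma SE of 0.022 (adjusted p = 0.0448 over all autosomal windows), and 7 of the 8 probes were higher in Ikzf1+/- tumours. It was 0.101 without the most different probe, at position 7552010. Here too the larger difference was in Cy3, with -0.0066 ± 0.0409 in Ikzf1+/+ and -0.211 ± 0.0508 in Ikzf1+/- arrays, while Cy5 was at -0.105 ± 0.0347 and -0.140 ± 0.0566. Without dye normalization the difference was 0.080 (limma adjusted p = 0.275), and with normexp it was 0.118 (limma adjusted p = 0.134). Leaving out any tumour other than Ikzf1+/+ tumour 3 ended the call, with limma adjusted p-values from 0.0856 to 0.204 and differences from 0.158 to 0.167.

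In runs of 5 consecutive probes, 1 of 247 in the flanks was called higher and 0 lower, against 0.0405% and 0.133% of 76489 autosomal runs. At an unadjusted p, 22 were higher and 7 lower, against 6.30% and 5.87%. The called run, chr11:7510715-7552069, lies inside the called window and is no independent result. Its ratio was -0.145 ± 0.0559 in Ikzf1+/+ and 0.091 ± 0.0414 in Ikzf1+/- tumours (n = 5 each, difference 0.237, limma SE 0.045, adjusted p = 0.0457), and all 5 probes were higher. Leaving out any one tumour ended this call too, with limma adjusted p-values from 0.0505 to 0.143. Before dye normalization the difference was 0.078 (limma adjusted p = 0.484), and with normexp it was 0.082 (limma adjusted p = 0.394).

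The other windows with the smallest p-values were not called. The window chr11:14600668-14699246, in the low distal stretch, had means of -0.102 ± 0.0725 and 0.050 ± 0.0440 without overlap (difference 0.152, limma adjusted p = 0.125). Its difference was 0.056 before dye normalization and 0.0080 with normexp. The window chr11:12815893-12900016 had -0.128 ± 0.0510 and 0.012 ± 0.0602 (difference 0.140, limma adjusted p = 0.133). Both were higher in Ikzf1+/- tumours in 7 of 8 probes. On the lower side, chr11:12003912-12098190 had a difference of -0.160 (limma adjusted p = 0.168), which shrank to -0.024 without the probe at 12027775 described below. It was 0.028 on slide 3, so its sign turned there. The window chr11:13009058-13097719 had -0.010 ± 0.0890 and -0.114 ± 0.0173 without overlap (difference -0.104, limma adjusted p = 0.233), and chr11:16802410-16895392 had 0.038 ± 0.0610 and -0.049 ± 0.0616 (difference -0.087, limma adjusted p = 0.282).

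**Figure D4:**
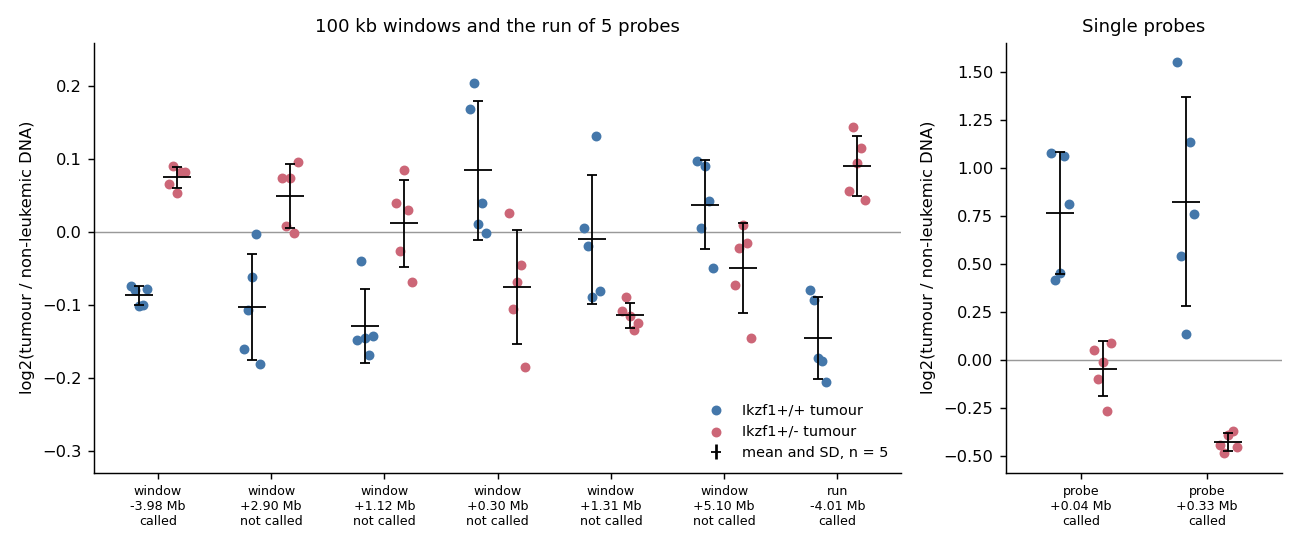
Log2 ratio of tumour over non-leukemic DNA in each of 10 tumours (points) for the named 100 kb windows, the run of 5 probes and the single probes, labelled by distance from the Ikzf1 interval (- proximal, + distal) and by whether limma called them at an adjusted p of 0.05; black marks are means and bars 1 SD (n = 5 each). Both called probes are lower in every Ikzf1+/- tumour; the vertical scales of the panels differ.

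Single probes gave the steepest differences. Of 1238 flank probes with a value on every array, 0 were called higher and 2 lower in Ikzf1+/- tumours, where 0.017% and 0.0701% of 382129 autosomal probes were called. At an unadjusted p, 61 were higher and 39 lower, against 4.12% and 4.40% over the autosomes. An absolute difference of at least 0.3 was found in 55 flank probes, 31 of them higher and 24 lower, against 2.24% and 2.21% of autosomal probes. The genotypes did not overlap in 6 and 6 of these, where 0.345% and 0.61% of autosomal probes did so, so the flank counts were close to those shares. The largest difference above 0 was 0.922, at position 15441138, and it was not called.

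The first called probe, chr11:12027775-12027834, lay 0.328 Mb from the Ikzf1 interval. Ikzf1+/+ tumours 1 to 5 had ratios of 1.549, 0.542, 0.136, 1.133 and 0.759, against -0.440, -0.483, -0.389, -0.366 and -0.451 in Ikzf1+/- tumours 1 to 5. All Ikzf1+/+ tumours were above 0 with a wide spread, and all Ikzf1+/- tumours were below 0 within a narrow range. The difference was -1.249 (limma SE 0.184, adjusted p = 0.0113), and the call was lost when Ikzf1+/- tumour 1 was left out (limma adjusted p = 0.0514) and held when any other tumour was. The dyes differed in opposite directions: Cy5 was at 1.074 ± 0.551 in Ikzf1+/+ and 0.247 ± 0.144 in Ikzf1+/- arrays, and Cy3 at 0.263 ± 0.0598 and 0.677 ± 0.132. Before dye normalization the difference was -1.122 (limma adjusted p = 0.000258). The nearest probes on either side, 19.6 kb below and 23.8 kb above it, had differences of 0.138 and 0.089, so the change did not extend to them.

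The second called probe, chr11:11739830-11739885, lay 0.0398 Mb from the Ikzf1 interval in the densely tiled first 100 kb of the distal flank. Ikzf1+/+ tumours 1 to 5 had ratios of 1.079, 0.419, 0.454, 1.063 and 0.814, against 0.055, -0.096, -0.0073, -0.263 and 0.091 in Ikzf1+/- tumours 1 to 5. Ikzf1+/- tumours lay around 0 and all Ikzf1+/+ tumours lay above them. The difference was -0.810 (limma SE 0.134, adjusted p = 0.0236), and leaving out single tumours gave limma adjusted p-values from 0.00752 to 0.0917, over 0.05 without Ikzf1+/+ tumour 1, 4 or 5 or any Ikzf1+/- tumour. The difference lay in the tumour channel, with Cy5 at 1.390 ± 0.424 and 0.591 ± 0.0786 and Cy3 at 0.637 ± 0.127 and 0.639 ± 0.0840. Without dye normalization it was -0.738 (limma adjusted p = 0.00154). The nearest probes, 305 bases below and 621 bases above, differed by -0.189 and -0.039.

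Both called probes were thus lower in Ikzf1+/- tumours on processed signals and on background-subtracted signals before dye normalization. The broad flank differences passed no exact permutation test on the latter. On signals before dye normalization, 1 flank probe was called higher and 9 lower, where 0.0272% and 0.226% of autosomal probes were, so lower calls also outnumbered higher ones over the genome. The sequences of the probes were not used here, so the bases under them are not described.

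Finally, all 10 tumours were read together against non-leukemic DNA. Of the 99 flank windows of 100 kb, 0 were above 0 and 21 below it at a limma adjusted p under 0.05, where 5.97% and 10.5% of autosomal windows were. At an unadjusted p under 0.05, 2 were above 0 and 41 below, against 14.2% and 20.2% over the autosomes. Window means of Ikzf1+/+ tumours ran from -0.207 to 0.090 with 86 of 99 below 0, and those of Ikzf1+/- tumours from -0.126 to 0.075 with 67 below 0. The share of autosomal windows below 0 in each genotype was not computed. The departures were small beside the loss of a copy, and with no dye swap, this test takes no account of spread among reference samples and keeps any dye effect common to the arrays.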

How the data were processed

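The scanner files deposited by the authors hold background-subtracted, dye-normalized Cy5 and Cy3 intensity per spot, per the file headers made with a lowess CGH protocol of Agilent Feature Extraction 10.7.3.1 on build mm9; the submitters' processing notes name 10.5.1.1. The deposited series matrix holds log2 ratios that match the scanner files' deposited log10 ratios once converted, uncentred, with medians of -0.0194 to -0.0006; it served as an alternative.

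Here log2(Cy5/Cy3) was computed per spot, outlier spots were left out (0.037% of spots), spots of a probe averaged and arrays centred on the autosomal median. Flank means were compared by two-sided exact permutation tests (scipy 1.17.1). Windows of 100 kb with at least 3 probes, runs of 5 and single probes were fitted over all autosomes with limma 3.58.1 (R 4.3.3), Benjamini-Hochberg over all; 358 probes without a value on every array were left out. Segments came from penalised least squares (numpy 2.4.6, numba 0.67.0). The fits were tested on simulated data. Array number limits precision.

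Named windows, runs and probes are those called, plus the 3 windows with the smallest p in each direction. Alternatives were normexp (offset 50, on median signals, as mean signals were not used here), loess, the series matrix, bright probes, outlier spots kept, medians, other windows and centring, slide, replicate block and each array left out. Members, rules and lists were chosen with earlier results of these data known. The planned comparison by gene was not run, as the files name no genes.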

Additional observations from a re-analysis of the deposited data

Results flagged for a closer look

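In the window chr11:12815893-12900016, Ikzf1+/+ tumour 2 stood apart from the other Ikzf1+/+ tumours by Dixon's test for 5 values, at -0.039 against -0.168 to -0.142 in the other 4. Of 34 groups of 5 tumours checked, 1 stood apart in this way, and chance alone gives about 1 in 20.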

How the results depend on the processing

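Under normexp background correction, the differences were 0.019 over both flanks, 0.019 proximal and 0.020 distal, each at an adjusted exact permutation p of 0.0159. In that setting the flanks minus the rest of chromosome 11 reversed to -0.014. The band within 1 Mb reversed to 0.037 (exact permutation p = 0.0317, adjusted 0.0952), and the bands from 1 to 3 Mb and beyond 3 Mb fell to 0.0059 and 0.0082. On signals before dye normalization, which was added after the data had been seen, the differences were -0.0012 over both flanks, -0.0042 proximal, 0.0012 distal, 0.015 for the flanks minus the rest of the chromosome, 0.0077 from 1 to 3 Mb and 0.0058 beyond 3 Mb, none of them past its exact permutation test. The band within 1 Mb also reversed to 0.016 when arrays were centred on chromosome 11 outside the flanks, to 0.0077 with each 100 kb window counted once, and to 0.012 without the densely tiled 200 kb on either side. The cause was not tested in these cases.

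Whether the replicate numbers pair the samples could not be settled, as correlations cannot show how samples were matched. Deviations of same-numbered tumours correlated at 0.036, 0.031, -0.022, -0.0053 and 0.196. Only for number 5 was the same-numbered Ikzf1+/- tumour the best correlated. With the replicate block the differences were 0.023, 0.021 and 0.024 for both flanks, the proximal and the distal flank, 0.041 against the rest of the chromosome, and 0.045 and 0.037 for the outer bands, each at the smallest p of 0.0625 that 5 pairs allow, and 0 windows and 0 runs were called under the block. With slide as a fixed block, which rests on the pair of arrays on slide 3 and has no exact test, these differences were 0.022, 0.011, 0.032, 0.029, 0.055 and 0.022, the window at 12003912 reversed to 0.028, and 0 windows, runs and probes were called.

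Called flank windows numbered 0 with normexp, loess, signals before dye normalization, probe medians or a minimum of 10 probes in a window, and 2 in windows of 500 kb (0 of these before dye normalization). Over the autosomes, 0.303% of windows were called with normexp and 7.35% of windows of 500 kb. Called runs numbered 0 with loess, signals before dye normalization or medians. With normexp 1 flank run was called, but not the one called on processed signals. In that setting 2.16% of autosomal runs were called, against 0.174% on processed signals. Called probes numbered 6 with normexp and 10 before dye normalization, where calls over all autosomal probes were 0.541% and 0.254%, against 0.0871% on processed signals. Windows away from 0 numbered 38 with normexp, 13 with loess, 71 before dye normalization, 13 with medians, 5 with at least 10 probes and 12 in windows of 500 kb, while 23.9%, 13.7%, 53.3%, 10.05%, 18.0% and 39.3% of autosomal windows were called in these settings, against 16.5% on processed signals. Segment calls in the flanks numbered 2 without the limit on single probes, where 0.803% of autosomal probe values lay in calls.

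Leaving out each tumour in turn gave differences from 0.020 to 0.026 over both flanks, 0.018 to 0.024 proximal, 0.020 to 0.028 distal, 0.035 to 0.045 against the rest of the chromosome, -0.012 to 0.0071 within 1 Mb, 0.039 to 0.051 from 1 to 3 Mb and 0.029 to 0.042 beyond 3 Mb. It gave 0 to 1 called windows, 0 to 1 runs, 0 to 3 probes, and 10 to 19 windows away from 0, with 10 without Ikzf1+/+ tumour 5 and 13 without Ikzf1+/+ tumour 3. Calls over the autosomes moved too. Of 23427 windows, 723 lay above 0 and 1350 below without Ikzf1+/+ tumour 5. The counts were 1046 and 1675 without Ikzf1+/+ tumour 3, against 1399 and 2457 with all tumours. Called autosomal windows numbered 1 to 9 higher and 0 to 16 lower, runs 4 to 69 and 3 to 277, and probes 25 to 109 and 70 to 589. All other settings kept the direction of the flank differences and their side of the threshold, though the size changed: over both flanks it was 0.042 centred on chromosome 11 outside the flanks, 0.039 with each 100 kb window counted once, 0.035 without the densely tiled 200 kb and 0.015 with loess. Cy5 signal was lower in Ikzf1+/+ arrays and no dye was swapped.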
